A study of Mus musculus with 6 samples.

Results

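Excitation-contraction coupling and calcium handling are represented here by 32 genes for the channels, pumps, buffers and membrane links through which a muscle cell releases and takes back calcium. They were chosen by gene name, by a rule that uses no measured value, though with earlier results of these data known. The array has named probes for 20659 genes, 30 of the 32 among them. The cells were C2C12, an established line of mouse myoblasts, which stop dividing and can fuse into myotubes. Before differentiation the cells received either the control siRNA, si-NC (3 samples), or si-lncMGPF, which targets the long noncoding RNA lncMGPF (3 samples). All 6 samples were taken at day 2 of differentiation, and 1-colour expression arrays measured their total RNA. Both groups therefore share the transfection and the differentiation step. Nothing in the labels says that the replicates came from separate cultures, and p-values then cover only the spread among these samples, which may be technical. The level of lncMGPF itself was not analysed here.

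In skeletal muscle an action potential enters the cell along the transverse tubules and moves the voltage sensor of the dihydropyridine receptor, which opens the ryanodine receptor in the adjoining sarcoplasmic reticulum. Calcium leaves the store, activates the contractile filaments, and is pumped back by the SERCA calcium ATPases. Calsequestrin and related proteins hold calcium inside the store, parvalbumin binds it in the cytosol, and STIM and ORAI proteins let calcium in from outside when the store is empty. Most of these genes are switched on as myoblasts differentiate.

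That programme is under the control of the MyoD family and MEF2, so the promoter letters of the genes were searched for their usual motifs. RefSeq windows (GRCm38.p6) running from 250 bases before to 50 bases after the start site were at hand for 21 of the 32 genes, in 24 windows. The motif CAGCTG, a form of the E-box CANNTG that the MyoD family binds, reads the same on both strands. It was found in 10 of the 24 windows (41.7%, in 9 genes), against 16.3% of 32851 windows of all genes. The windows of Jph2 overlap and hold the same match, which is counted for each of them. Casq1, Kcnj2 and Sypl2, among the 9 genes, had no probe bright enough to be tested. The wider CANNTG, which includes every CAGCTG, was found in 79.2% of the windows against 72.3%. The MEF2-type motif, CTA and TAG with any 4 bases between, searched on both strands, was found in 4.17% (1 window) against 3.69%. A match describes the letters of the window and not a bound site. The 4 windows below belong to genes followed through the results, and capitals mark CAGCTG. The match begins 123 bases before the start site in Cacna1s (chr1:136052561-136052860, plus strand), 22 bases before it in Hrc (chr7:45335019-45335318, plus strand) and 55 bases before it in Atp2a1 (chr7:126463024-126463323, minus strand). The window of Stim1 (chr7:102267569-102267868, plus strand) does not contain these letters.
Cacna1s: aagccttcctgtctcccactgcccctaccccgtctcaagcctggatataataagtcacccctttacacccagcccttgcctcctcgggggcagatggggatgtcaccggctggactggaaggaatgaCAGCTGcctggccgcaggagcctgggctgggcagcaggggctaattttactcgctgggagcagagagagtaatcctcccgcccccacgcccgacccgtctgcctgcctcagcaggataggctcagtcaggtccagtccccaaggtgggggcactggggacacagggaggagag
Hrc: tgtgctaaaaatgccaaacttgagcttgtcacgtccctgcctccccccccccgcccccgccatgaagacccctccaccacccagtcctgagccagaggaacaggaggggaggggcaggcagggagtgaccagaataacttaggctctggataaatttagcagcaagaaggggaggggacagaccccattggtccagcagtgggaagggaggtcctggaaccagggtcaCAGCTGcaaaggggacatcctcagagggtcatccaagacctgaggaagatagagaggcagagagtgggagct
Atp2a1: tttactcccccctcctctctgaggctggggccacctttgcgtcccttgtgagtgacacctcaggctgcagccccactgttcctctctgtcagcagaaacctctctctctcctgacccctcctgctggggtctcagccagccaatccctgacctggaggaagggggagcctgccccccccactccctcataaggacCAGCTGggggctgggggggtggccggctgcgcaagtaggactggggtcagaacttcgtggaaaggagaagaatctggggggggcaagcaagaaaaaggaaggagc
Stim1: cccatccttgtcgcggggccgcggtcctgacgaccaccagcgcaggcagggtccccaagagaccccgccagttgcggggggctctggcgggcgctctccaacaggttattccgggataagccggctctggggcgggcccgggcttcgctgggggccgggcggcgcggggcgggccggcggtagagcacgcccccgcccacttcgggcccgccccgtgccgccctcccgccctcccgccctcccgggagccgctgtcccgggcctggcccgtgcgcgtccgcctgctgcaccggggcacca

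The labels name no slide, and by their scan identifiers the arrays were taken to lie on 2 slides. Slide 1 held every si-NC array together with si-lncMGPF replicate 1, whereas replicates 2 and 3 of si-lncMGPF were on slide 2. Negative control spots read 20.1 to 21.8 intensity units on slide 1 and 37.3 and 42.5 on slide 2, and 64.7% to 65.8% of spots were well above background on slide 1 against 57.9% and 57.5% on slide 2. The 75th percentile of the signal, to which each array was scaled, ran from 492.1 to 930.7 intensity units. Differences of the genes described in full are therefore also given for slide 1 (si-lncMGPF replicate 1 minus the si-NC mean) and for slide 2 (the mean of si-lncMGPF replicates 2 and 3 minus the same si-NC mean). Slide 2 and the siRNA cannot be told apart there. The 13 markers listed for differentiated muscle, Myod1, Myog, Ckm and Acta1 among them, were well above background on all arrays. Their summed normalised level was 189 to 198 in si-NC and 189 to 205 in si-lncMGPF. Bright genes such as Chrna1 and Actc1 weigh most in this sum. With each marker read from its brightest tested probe, none of the 13 passed the limma test, with 1 lower and 1 higher at an unadjusted p under 0.05. The lower one was Myh8, at -0.69, with -0.25 on slide 1 and -0.91 on slide 2. The higher one was Actc1, at 0.27, with 0.14 and 0.34. The 9 markers of undifferentiated or cycling myoblasts summed to 32.5 to 34.0 and 30.3 to 36.5, and none passed either. Of these, read in the same way, 1 was lower and 0 higher at an unadjusted p under 0.05. It was Myf5, a myogenic transcription factor of myoblasts, with a log2 difference of -1.20 ± 0.40 (SE), adjusted p 0.258, and no overlap of the groups. The Myf5 difference was -0.21 on slide 1 and -1.69 on slide 2. Cdk1 was not counted, as its brightest probe gave -0.17. A dimmer Cdk1 probe gave -1.49 ± 0.47 (SE), adjusted p 0.243, without overlap, with -0.38 on slide 1 and -2.05 on slide 2. Its dimmest probe gave -0.16.

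In all, 42 probes were matched to these 30 genes. Ryr3, a second ryanodine receptor, and Mrln, the SERCA inhibitor myoregulin, were not matched to a probe. Testing required a probe to be well above background on all 3 arrays of either group, which 36 of the 42 probes met. That left 27 genes, 25 of them above background on all 6 arrays. Jph1 and Clcn1 qualified through the 3 si-NC arrays and were above background on 4 arrays in all, so their slide 2 values are only bounds. Casq1, the calsequestrin of fast muscle, and Kcnj2, an inward rectifier potassium channel, were above background on 1 array each. Both probes of Sypl2, a synaptophysin-like protein of the triad junction, were above background on at most 1. These 3 genes have no tested value. One of the probes of Trdn and one of those of Pvalb also went untested, with 0 and 2 arrays above background.

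None of the 36 tested probes differed between si-lncMGPF and si-NC at an adjusted p under 0.05 (limma, Benjamini-Hochberg over all 24661 tested probes), where 0.105% of all tested probes (26) passed. The lowest adjusted p among them was 0.126, for a probe of Stim1. At an unadjusted p under 0.05, 8 of the probes were lower and 2 higher, where 9.43% of all tested probes were lower and 6.4% higher. With each gene read from its probe of highest mean signal, 0 of 27 genes passed, where 0.147% of all tested genes (21 of 14265) did. Among the genes 6 were lower at an unadjusted p under 0.05 and 1 was higher, and over all tested genes 8.14% were lower and 6.04% higher by that rule. In bulk RNA of this kind, fewer myotubes and less RNA per myotube cannot be told apart. Without si-lncMGPF replicate 1, 6 of the 36 probes passed, 1 each of Atp2a2, Cacng6, Hrc, Jph1, Stim1 and Trdn, all lower. In the same fit 16.6% of all tested probes passed, 2368 of them lower and 1737 higher. That fit sets si-NC arrays of slide 1 against si-lncMGPF arrays of slide 2, so the siRNA and the slide cannot be told apart. The Jph1 value there rests on bounds, since its probe was above background on neither of the remaining si-lncMGPF arrays. With slide as a block 0 of them passed, where 0.0406% of all probes did, and with quantile normalization 0, where 0.0243% did.

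In direction, 17 of the 27 genes had a negative log2 difference (si-lncMGPF minus si-NC) and 10 a positive one, a share of 63.0% lower against 46.0% of all tested genes. The 17 include Jph1 and Clcn1, whose slide 2 values are only bounds. Of the genes above background on all 6 arrays, 15 of 25 were lower (60%), against 43.7% of all such genes on the array. The median log2 difference was -0.12 over the 27 genes and 0.02 over all 14265. All 3 si-lncMGPF arrays lay below all 3 si-NC arrays for 8 of the 27 genes, where 12.7% of all genes did so, and above them for 1 gene, where 9.7% did. The 8 were Cacna1s, Cacng6, Cacnb1, Atp2a2, Pvalb, Hrc, Tmem38a and Stim1, and the 1 was Sln. The slides gave different pictures. On slide 1 the median was -0.01, with 14 of the 27 lower, against -0.07 and 60.6% lower over all genes. On slide 2 it was -0.20, with 17 lower, against 0.06 and 40.2% lower over all genes. Counted gene by gene, 9 were lower on both slides and 5 higher on both.

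**Figure D1:**
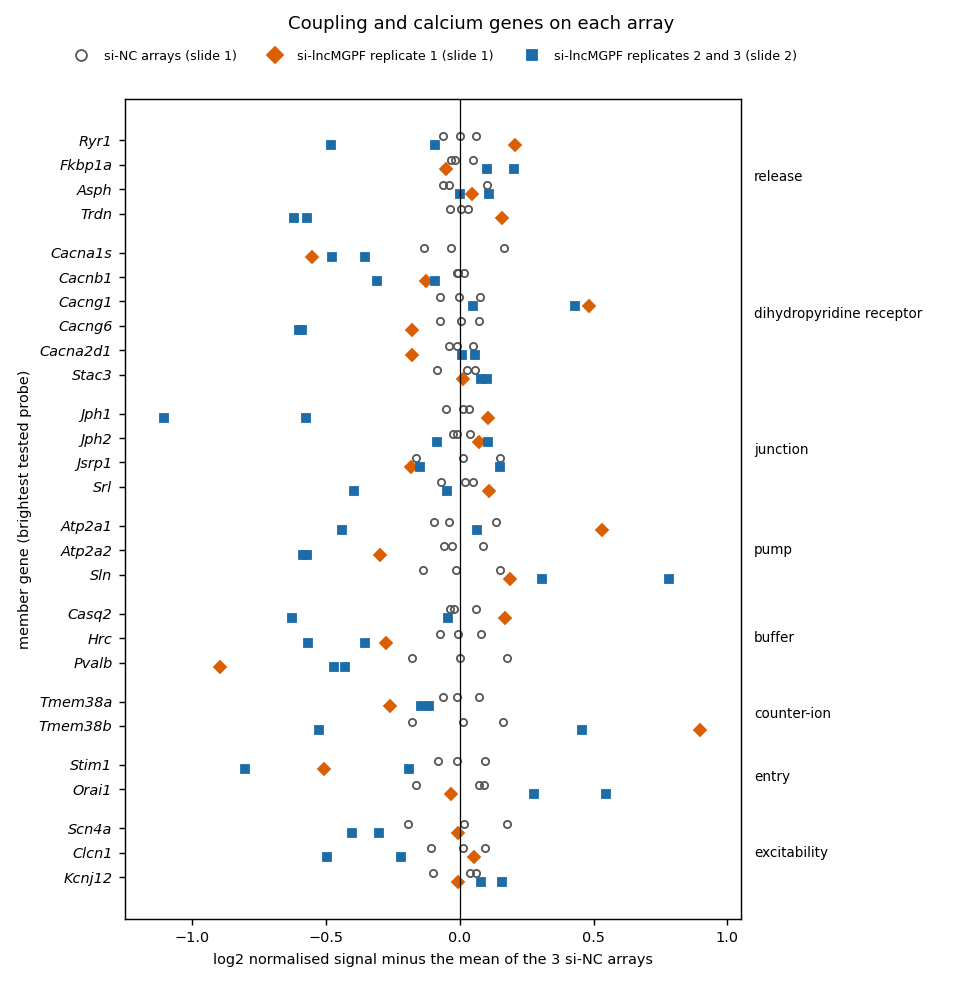
Normalised log2 signal of the 27 tested genes on each of the 6 arrays (x axis, log2 units), each gene set to the mean of its 3 si-NC arrays, with genes grouped by role (y axis). The si-NC arrays (open circles) lie close together, while si-lncMGPF replicates 2 and 3 (squares) often lie apart from replicate 1 (diamonds); 8 genes have all 3 si-lncMGPF arrays below all si-NC arrays.

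The spread within groups was wider under si-lncMGPF. The si-NC arrays shared slide 1 and the si-lncMGPF arrays were on both slides, so only the si-lncMGPF SD includes any difference between slides. The median SD (n = 3) over the 27 genes was 0.08 log2 units in si-NC and 0.24 in si-lncMGPF, and the si-lncMGPF SD was the larger in 23 of 27 genes (85.2%). Over all tested genes the medians were 0.07 and 0.19, with the si-lncMGPF SD larger in 85.1%. The wider spread was thus about as frequent here as over the array.

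The dihydropyridine receptor genes had a negative log2 difference in 4 of 6 cases, and none passed the test. Cacna1s encodes the pore and voltage sensor of the channel. Its normalised log2 signal was 0.62, 0.92 and 0.72 in si-NC replicates 1 to 3 and 0.20, 0.28 and 0.40 in si-lncMGPF replicates 1 to 3. All si-lncMGPF arrays lay below all si-NC arrays. The log2 difference was -0.46 ± 0.11 (SE, n = 3 and 3; 1.38-fold lower), with a limma adjusted p of 0.208, and it was -0.55 on slide 1 and -0.41 on slide 2. Cacng6, a gamma subunit gene, read -2.75, -2.61 and -2.67 in si-NC and -2.85, -3.27 and -3.28 in si-lncMGPF. Here too the groups did not overlap, although si-lncMGPF replicate 1 lay nearer to the si-NC arrays than to its own group. Its log2 difference of -0.46 ± 0.14 (SE), adjusted p 0.236, split into -0.18 on slide 1 and -0.59 on slide 2, and with normexp background correction it was -0.24. Cacnb1, the beta subunit that carries the channel to the membrane, was the third gene without overlap and had a small difference of -0.18 ± 0.09 (SE).

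Cacng1, the gamma subunit of the skeletal muscle channel, had the opposite sign to Cacng6. It read 0.90, 0.75 and 0.82 in si-NC and 1.31, 0.88 and 1.26 in si-lncMGPF, so that si-lncMGPF replicate 2 lay within the si-NC range. On average si-lncMGPF was higher by 0.32 ± 0.14 (SE), adjusted p 0.317, with 0.48 on slide 1 and 0.24 on slide 2. Cacna2d1, the extracellular alpha2-delta subunit, differed by -0.04 ± 0.10 (SE), and Stac3, the adaptor that joins the channel to the release machinery, by 0.06 ± 0.09 (SE). The 95% interval ran from -0.27 to 0.20 for Cacna2d1 and from -0.14 to 0.27 for Stac3, so shifts of that size in either direction are not excluded by these arrays.

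The genes of the release channel complex showed no common direction. Ryr1, the ryanodine receptor of skeletal muscle, read 0.40, 0.27 and 0.34 in si-NC and 0.54, -0.15 and 0.24 in si-lncMGPF. The si-lncMGPF arrays lay on both sides of the si-NC arrays, with 0.21 on slide 1 and -0.29 on slide 2, and the pooled log2 difference was -0.12 ± 0.18 (SE), adjusted p 0.744. Fkbp1a encodes FKBP12, which binds the ryanodine receptor and steadies its closed state. It read 4.33, 4.40 and 4.31 in si-NC and 4.30, 4.55 and 4.45 in si-lncMGPF, a difference of 0.09 ± 0.10 (SE), with -0.05 on slide 1 and 0.15 on slide 2. Its sign thus differed between the slides.

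Trdn, which encodes triadin, the link between the ryanodine receptor and calsequestrin, split by slide. It read -1.30, -1.28 and -1.35 in si-NC, -1.15 in si-lncMGPF replicate 1, and -1.93 and -1.88 in replicates 2 and 3. The pooled log2 difference of -0.34 ± 0.21 (SE), adjusted p 0.443, therefore joins 0.16 on slide 1 and -0.59 on slide 2. Asph, a locus that makes junctin and junctate as well as the aspartyl hydroxylase, differed by 0.05 ± 0.09 (SE) on its brightest probe. All 3 of its si-lncMGPF arrays lay within the si-NC range or just above it.

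Jsrp1, listed with the genes of the junction between tubule and reticulum, encodes a protein that binds both the voltage sensor and calsequestrin. It read 4.72, 5.03 and 4.89 in si-NC and 4.70, 4.73 and 5.03 in si-lncMGPF. The groups overlapped almost completely, and the log2 difference was -0.06 ± 0.13 (SE), with -0.18 on slide 1 and 0.00 on slide 2. Jph2, a junctophilin that tethers the membranes, differed by 0.03 ± 0.09 (SE). Its relative Jph1 read -5.31, -5.37 and -5.29 in si-NC, -5.22 in si-lncMGPF replicate 1, and -5.90 and -6.43 in replicates 2 and 3, where the probe was not well above background. Those last values are bounds rather than levels, and the difference of -0.53 ± 0.28 (SE), adjusted p 0.395, rests on them. Srl, which encodes the lumenal calcium-binding protein sarcalumenin, was listed here and not with the buffers. It differed by -0.11 ± 0.14 (SE), with 0.11 on slide 1 and -0.22 on slide 2.

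The SERCA pumps had unlike values, and neither passed the test. Atp2a2, the SERCA2 gene, read 1.53, 1.64 and 1.49 in si-NC and 1.25, 0.97 and 0.98 in si-lncMGPF on its brightest probe. Every si-lncMGPF array lay below every si-NC array. The log2 difference was -0.48 ± 0.11 (SE; 1.40-fold lower), adjusted p 0.195, and it was -0.30 on slide 1 and -0.58 on slide 2. Atp2a1, the SERCA1 gene of fast muscle, read -1.99, -2.22 and -2.17 in si-NC and -1.60, -2.57 and -2.06 in si-lncMGPF. Replicate 1 lay above the si-NC arrays, replicate 2 below them and replicate 3 among them. The difference was 0.05 ± 0.24 (SE), adjusted p 0.927, with 0.53 on slide 1 and -0.19 on slide 2.

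Sln encodes sarcolipin, a small peptide that inhibits SERCA. It was the only gene of the 27 whose si-lncMGPF arrays all lay above the si-NC arrays, with -5.18, -5.06 and -4.89 in si-NC and -4.85, -4.73 and -4.26 in si-lncMGPF. The gap between the groups was narrow, at -4.89 against -4.85. This gave a log2 difference of 0.43 ± 0.17 (SE; 1.34-fold higher), adjusted p 0.304, with 0.19 on slide 1 and 0.55 on slide 2. It was 0.25 without si-lncMGPF replicate 3 and 0.18 with normexp background correction.

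All 3 tested genes listed as calcium buffers were lower, and none passed the test. Pvalb encodes parvalbumin, the cytosolic buffer of fast fibres. It read -2.51, -2.16 and -2.33 in si-NC and -3.23, -2.76 and -2.81 in si-lncMGPF, with no overlap. Its log2 difference, -0.60 ± 0.16 (SE; 1.51-fold lower), adjusted p 0.221, was -0.90 on slide 1 and -0.45 on slide 2. Hrc, a histidine-rich calcium-binding protein of the store lumen, read 0.89, 1.04 and 0.96 in si-NC and 0.69, 0.40 and 0.61 in si-lncMGPF, again with no overlap. Its difference was -0.40 ± 0.11 (SE; 1.32-fold lower), adjusted p 0.222, with -0.28 on slide 1 and -0.46 on slide 2. Casq2, the calsequestrin of cardiac and slow muscle, read 1.31, 1.39 and 1.29 in si-NC and 1.50, 0.70 and 1.29 in si-lncMGPF. Replicate 2 alone lay far below the si-NC arrays, and the difference was -0.17 ± 0.20 (SE), adjusted p 0.694, with 0.17 on slide 1 and -0.33 on slide 2. Without si-lncMGPF replicate 2 it was 0.06.

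The TRIC channels carry potassium into the store as calcium leaves it. Tmem38a (TRIC-A) read 2.17, 2.25 and 2.11 in si-NC and 1.91, 2.06 and 2.03 in si-lncMGPF, with every si-lncMGPF array below every si-NC array. Its log2 difference was small, at -0.18 ± 0.09 (SE), adjusted p 0.383, with -0.26 on slide 1 and -0.13 on slide 2. Tmem38b (TRIC-B) was scattered under si-lncMGPF, at -2.20, -3.62 and -2.64 against -2.93, -3.27 and -3.08 in si-NC, and its difference of 0.28 ± 0.34 (SE) was smaller than its error.

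**Figure D2:**
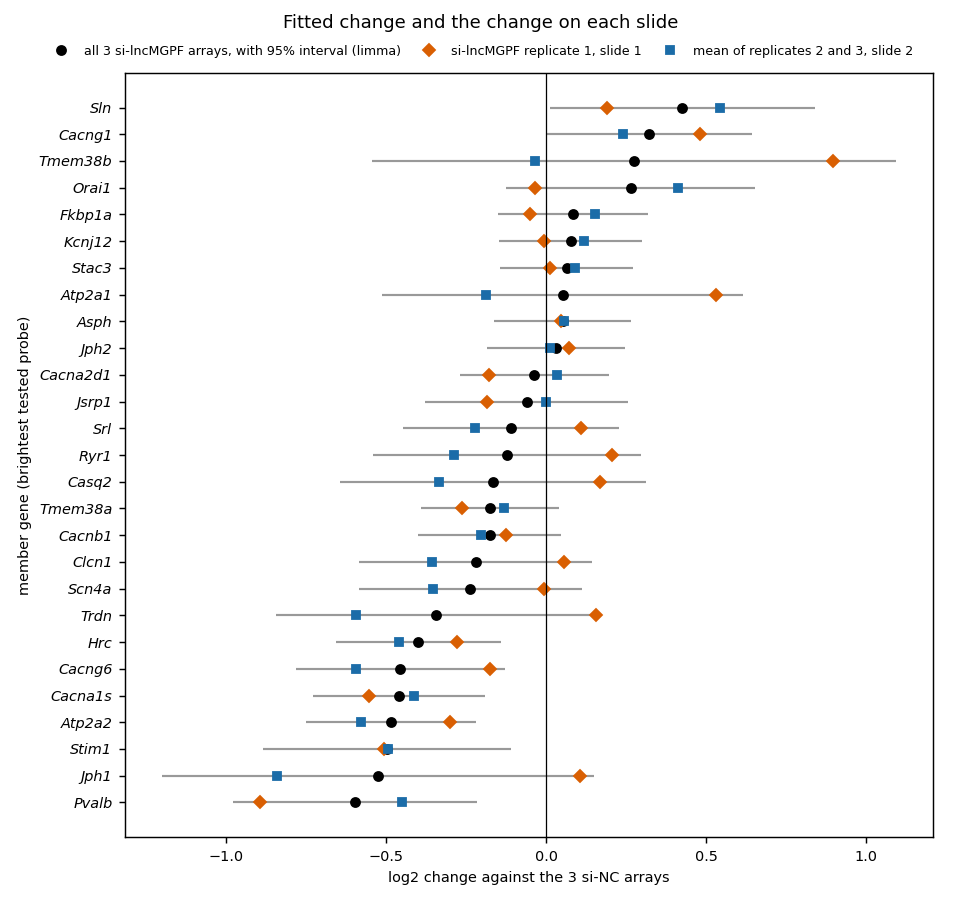
Log2 difference between si-lncMGPF and si-NC (x axis) for the 27 tested genes (y axis), from all 6 arrays with its 95% limma interval (black), from si-lncMGPF replicate 1 on slide 1 (diamonds) and from the mean of replicates 2 and 3 on slide 2 (squares). Pvalb, Stim1, Atp2a2, Cacna1s, Cacng6 and Hrc lie left of 0 on both slides, while Trdn and Jph1 lie left of 0 on slide 2 alone.

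In store-operated entry, Stim1, the calcium sensor in the store membrane, was read by a pair of probes. The brightest gave 1.27, 1.45 and 1.34 in si-NC and 0.85, 1.17 and 0.55 in si-lncMGPF, and the other gave 1.27, 1.43 and 1.32 against 0.83, 0.72 and 0.59. On both probes every si-lncMGPF array lay below every si-NC array. The log2 difference was -0.50 ± 0.16 (SE; 1.41-fold lower), adjusted p 0.251, on the brightest probe and -0.63 ± 0.10 (SE; 1.55-fold lower), adjusted p 0.126, on the other. By slide it was -0.51 and -0.49 on the brightest and -0.51 and -0.69 on the other, so both slides gave differences of like size. Orai1, the channel that STIM1 opens, had the other sign, at 0.26 ± 0.16 (SE), adjusted p 0.449, with -0.03 on slide 1 and 0.41 on slide 2.

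The genes of membrane excitability were near the si-NC arrays on slide 1. Scn4a, the muscle sodium channel that carries the action potential, read -1.85, -1.48 and -1.64 in si-NC and -1.66, -1.96 and -2.06 in si-lncMGPF. Its difference was -0.24 ± 0.15 (SE), with -0.01 on slide 1 and -0.35 on slide 2. Clcn1, the chloride channel that steadies the resting potential, differed by -0.22 ± 0.15 (SE), with 0.06 on slide 1 and -0.36 on slide 2, where it was not well above background. Kcnj12, an inward rectifier, differed by 0.08 ± 0.09 (SE). The adjusted p of these 3 genes ran from 0.448 to 0.698.

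Probes of one gene can read different transcripts, so their log2 differences were compared within each array. Of the 27 genes 7 had more than 1 tested probe, which made 9 pairs of the brightest probe with each other one. In 8 of the 9 pairs the log2 differences were within 0.3 of each other, and in 1 pair they lay further apart, where 24.2% of all 4252 such pairs on the array did. The signs were opposite in 2 pairs, where 38.4% of all pairs were opposite. No pair passed the limma test of unequal change, adjusted over all pairs, and none of the 4252 did. At an unadjusted p under 0.05 there was 1 pair, where 11.8% of all pairs were.

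That pair belonged to Atp2a2. Its dimmer probe read -1.49, -1.77 and -1.60 in si-NC and -0.91, -2.13 and -1.32 in si-lncMGPF, with replicates 1 and 3 above the si-NC arrays and replicate 2 below them. Its log2 difference was 0.17 ± 0.30 (SE), adjusted p 0.792, with 0.71 on slide 1 and -0.11 on slide 2. The gap between the log2 differences, brightest minus dimmer, was -0.65 ± 0.27 (SE), with a 95% interval of -1.29 to -0.01 and an adjusted p of 0.417. The lower SERCA2 signal was therefore carried by 1 of its probes, and the arrays do not settle whether the other differed.

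The other pairs lay closer. The probes of Cacna1s gave -0.46 ± 0.11 and -0.42 ± 0.17 (SE), a gap of -0.04 with a 95% interval of -0.46 to 0.39. The dimmer one read -3.23, -3.08 and -3.07 in si-NC and -3.39, -3.92 and -3.34 in si-lncMGPF, again without overlap, and its difference was -0.23 with normexp and -0.24 without si-lncMGPF replicate 2. The gap between the Stim1 probes was 0.13, with an interval of -0.23 to 0.49. The 4 probes of Asph gave 0.05, 0.08, 0.13 and 0.25, all positive, and those of Fkbp1a 0.09 and 0.17. Orai1 gave 0.26 and 0.08, and Cacna2d1 gave -0.04 and 0.02, the second pair of opposite sign. The intervals of these gaps are wide beside the differences themselves, so equal change of the probes is not shown.

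**Figure D3:**
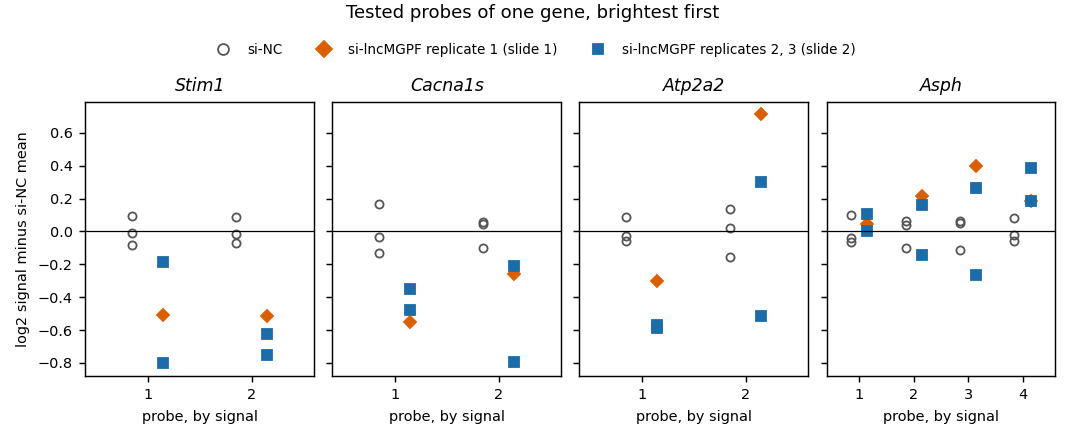
Log2 signal minus the si-NC mean of the same probe (y axis) on each array, for every tested probe of Stim1, Cacna1s, Atp2a2 and Asph, ordered by signal (x axis). Both probes of Stim1 and of Cacna1s have all si-lncMGPF arrays below the si-NC arrays, whereas the dimmer Atp2a2 probe spans 0.71 to -0.51 under si-lncMGPF.

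Other calcium genes, from a list of 79 that covers paralogs, surface pumps and exchangers, calmodulin signalling, mitochondrial uptake and membrane shaping, were read from the same fit. Of these 78 had a probe and 63 were tested, 57 of them above background on all arrays. None passed the limma test, and 29 were lower and 34 higher in all. At an unadjusted p under 0.05, 4 were lower (6.35%, against 8.14% of all genes) and 5 higher (7.94% against 6.04%). Without overlap, 6 lay below all si-NC arrays (9.52% against 12.7%) and 4 above them (6.35% against 9.7%). Without si-lncMGPF replicate 1, 7 of the 63 passed, where 14.7% of all tested genes did. There too the siRNA and the slide cannot be told apart. The median log2 difference of the 63 genes was 0.02, as over all tested genes, while that of the 27 was -0.12. The gap between the lists was not tested.

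The lowest of their adjusted p belonged to Slc8a3, a sodium-calcium exchanger of the surface membrane that is present in skeletal muscle. It read 1.27, 1.40 and 1.40 in si-NC and 0.89, 0.48 and 0.70 in si-lncMGPF, with no overlap. The log2 difference was -0.67 ± 0.13 (SE), adjusted p 0.161, with -0.46 on slide 1 and -0.77 on slide 2. Atp2b2, a plasma membrane calcium pump, read -3.15, -2.90 and -2.96 in si-NC and -3.34, -3.69 and -3.60 in si-lncMGPF. Its difference was -0.54 ± 0.13 (SE), adjusted p 0.199, with -0.34 on slide 1 and -0.64 on slide 2, and it was -0.25 with normexp. These exporters thus lay below the si-NC arrays on every si-lncMGPF array, on the probes given. Other exporters of their families did not, and their groups overlapped. The probes of Atp2b1 gave 0.23 and 0.22, those of Atp2b4 -0.46, -0.04 and 0.04, and the tested probe of Slc8a1 0.04.

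Among the signalling genes, Camk2b, a subunit of the calmodulin-dependent kinase, read -3.58, -3.35 and -3.53 in si-NC and -3.97, -3.76 and -3.88 in si-lncMGPF, a difference of -0.38 ± 0.11 (SE), adjusted p 0.223. Nfatc3, a transcription factor that calcineurin activates, read -1.19, -1.12 and -1.09 against -1.39, -1.45 and -1.94, a difference of -0.46 ± 0.16 (SE), adjusted p 0.258. Slides 1 and 2 gave -0.48 and -0.33 for Camk2b, which was -0.19 with normexp, and -0.26 and -0.56 for this Nfatc3 probe, which was -0.29 without si-lncMGPF replicate 3. A second Nfatc3 probe gave -0.07 ± 0.13 (SE), adjusted p 0.801, with 0.04 on slide 1 and -0.12 on slide 2, so it did not show the lower value. Rcan1, a calcineurin regulator whose transcription calcineurin itself raises, read -0.32, -0.65 and -0.53 in si-NC and 0.30, -0.33 and 0.26 in si-lncMGPF. Its si-lncMGPF replicate 2 lay just inside the si-NC range, and the difference was 0.57 ± 0.19 (SE), adjusted p 0.257, with 0.79 on slide 1 and 0.46 on slide 2. Sri, which encodes sorcin, a calcium-binding protein that acts on the ryanodine receptor, read 2.52, 2.34 and 2.40 against 2.56, 2.78 and 2.82. All si-lncMGPF arrays lay above the si-NC arrays, by 0.30 ± 0.11 (SE), adjusted p 0.271, with 0.14 on slide 1 and 0.38 on slide 2.

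**Figure D4:**
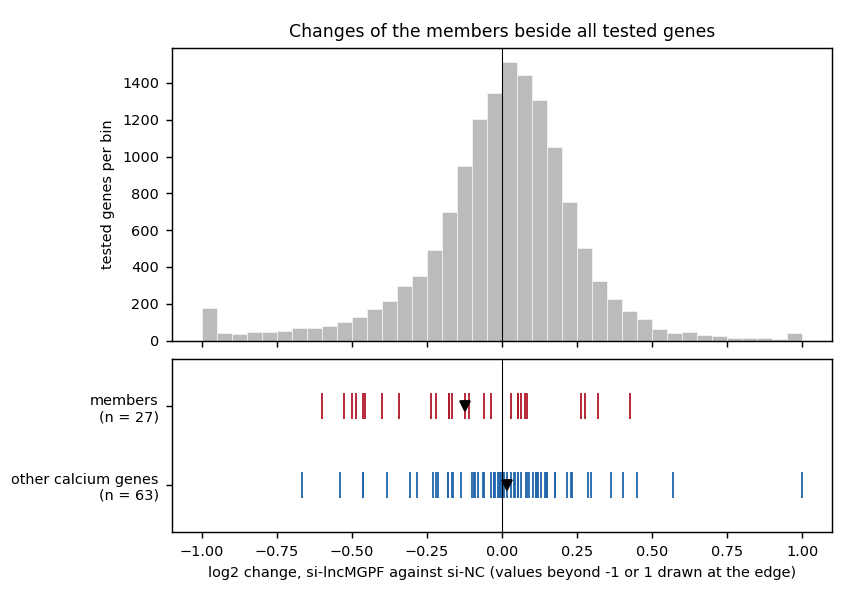
Log2 difference between si-lncMGPF and si-NC over all 14265 tested genes (upper panel, genes per bin) and for the 27 tested coupling genes and 63 other calcium genes (lower panel, 1 line a gene, triangle at the median; values beyond the axis are drawn at its edge). The coupling genes have a median of -0.12 and the other calcium genes 0.02, both within the bulk of the distribution.

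Among markers of other cell types with a probe, those well above background on all arrays were 1 of 5 for adipocytes, 1 of 4 for osteoblasts, 4 of 6 for endothelium and leukocytes, 3 of 5 for neurons and Schwann cells and 2 of 4 for cardiomyocytes. Of the adipocyte markers Adipoq, Cfd and Lep, of the osteoblast markers Ibsp and Sp7, and of the cardiomyocyte markers Myl7 were above background on no array, as was Cdh5 for endothelium, while Rbfox3 of neurons was above it on 1 array with 1 of its probes. The summed normalised level of the adipocyte list was 0.0614 to 0.0735 in si-NC and 0.0588 to 0.0994 in si-lncMGPF, and that of the cardiomyocyte list was 0.136 to 0.172 and 0.140 to 0.177. The osteoblast list summed to 0.109 to 0.141 and 0.0941 to 0.112. The sum of the endothelial and leukocyte list was lower in si-lncMGPF without overlap, at 3.96 to 4.88 against 2.71 to 3.72, and so was the neuron and Schwann cell list, at 4.25 to 5.31 against 3.33 to 4.04. In the first of these 3 tested genes were lower and 2 higher. Itgam, an integrin of myeloid cells, gave -1.10 on its brightest probe, with -0.47 on slide 1 and -1.41 on slide 2. Its other probes gave -0.25 and -0.40. By contrast, Pecam1 of endothelium gave 0.67, with -0.04 on slide 1 and 1.02 on slide 2, and Adgre1 of macrophages 0.15. In the second list all 4 tested genes were lower, with -1.03 for Snap25, a vesicle fusion protein (-0.50 on slide 1 and -1.30 on slide 2). None of these genes passed the test. The part of these lists in the values of the coupling genes was not tested.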

How the data were processed

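Per the labels, Cy3-labelled total RNA of 6 C2C12 samples was read on 1-colour Agilent arrays, and each title names the siRNA that sets its group. Scanner tables were deposited with intensity values after background subtraction by Feature Extraction 11.0.1.1, per the file headers. The series table of the authors repeats them, with equal values at 44397 of 44397 spots. Outlier spots were left out (117 to 134 per array) and none was saturated. Values are log2 of the processed signal minus log2 of the array's 75th percentile, with spots of a probe averaged, which hides any shift common to most transcripts.

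The tables give accessions, which were matched without version to RefSeq genes for names only, since that table's build differs from the array design's (mm9); 27234 of 39429 probes were named. The fit used lmFit and eBayes of limma 3.58.1 (R 4.3.3) without covariates over 24661 probes, 21560 of them above background on all 6 arrays, with Benjamini-Hochberg adjustment and a threshold of 0.05. Pairs of probes of one gene were fitted the same way on their per-array difference. The number of arrays limits the precision.

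The genes and lists were chosen with earlier results of these data known. Full values are given for genes with a probe past the threshold, for up to 10 with the smallest unadjusted p under 0.05, for genes whose probes differed by over 0.3, and for the brightest gene of each role (release, entry, pump, buffer, junction, channel). Of the other calcium genes they are given for up to 6 with the smallest unadjusted p under 0.05; the value of 1 further gene that the rule names is not reported here. Values of further genes of the set are given because all were to be accounted for. Same-numbered replicates correlated at 0.18, 0.32 and -0.06 in their deviations from the group means, so the numbers were not taken as pairs. Alternatives were quantile normalization, median centring, normexp with an offset of 50 (on median spot signals, as the tables used here lack mean signals), a stricter and no filter on dim probes, a robust prior with an intensity trend, slide as a block, as a random block or slide 1 alone, the replicate number as a block, the series table's values, averaging a gene's tested probes, and dropping each array in turn. Figures were drawn with matplotlib 3.10.9.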

Additional observations from a re-analysis of the deposited data

How the results depend on the processing

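Over all probes, the 26 calls became 6 with quantile normalization, 0 with no filter on dim probes, 10 with slide as a block, 1 on the slide 1 arrays alone and 0 with the replicate number as a block (4430 at an unadjusted p under 0.05). Leaving out 1 array gave 0 to 4105, with 0 when the array left out was an si-NC array or si-lncMGPF replicate 3, 4 for si-lncMGPF replicate 2 and 4105 for si-lncMGPF replicate 1. The coupling genes had 0 probes called under every alternative except the last, which gave 6, so leaving out 1 array gave 0 to 6; for the other calcium genes it gave 0 to 7. Without si-lncMGPF replicate 1 the siRNA and the slide cannot be told apart, and the cause of the change in calls was not tested. Slide as a block rests the comparison on 1 si-lncMGPF array. The median log2 difference of the 27 genes ranged from -0.20 to -0.01, and 14 to 18 were lower. Among the named genes the sign turned for the dimmer Atp2a2 probe (-0.11 without si-lncMGPF replicate 1, and up to 0.51 when another array was left out), Fkbp1a (-0.05 with slide as a block and on slide 1 alone, -0.01 with slide as a random block), Casq2 (0.17 with slide as a block and on slide 1 alone, 0.071 with the random block, and -0.33 to 0.063 when 1 array was left out, the latter without si-lncMGPF replicate 2) and Jsrp1 (-0.17 to 0.014 when 1 array was left out, positive without si-NC replicate 2 and 0.00 without si-lncMGPF replicate 1). Normexp brought several differences of dim probes nearer to 0 by over 1.5 times, to -0.24 for Cacng6, -0.23 for the dimmer Cacna1s probe, 0.18 for Sln, -0.25 for Atp2b2 and -0.19 for Camk2b. Array weights did not converge and are not reported. Probes near background are measured less well on slide 2.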

Other observations

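After the values were seen, the position of single arrays was counted. Under si-lncMGPF, replicate 1 lay above and replicate 2 below the range of the 3 si-NC arrays for 8 of the 27 tested coupling genes (29.6%), against 10.6% of all tested genes. The 8 were Ryr1, Trdn, Jph1, Jph2, Srl, Atp2a1, Casq2 and Tmem38b. Jph1 counts through a bound, as its replicate 2 value was not well above background. Replicate 1 was on slide 1 and replicate 2 on slide 2, so replicate and slide cannot be told apart here. Replicate 1 lay below the si-NC range for 40.7% of the 27 genes, replicate 2 for 66.7% and replicate 3 for 51.9%. Over all tested genes the shares were 49.5%, 31.1% and 31.1%. Those of the 27 genes for replicates 2 and 3 include Jph1 and Clcn1, whose values there are only bounds.

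Of the other calcium genes, Cacng7, a gamma subunit relative found mainly in nerve cells, had the largest positive log2 difference, 1.21 ± 0.47 (SE), adjusted p 0.291, and was chosen after its values were seen. It read -3.50, -2.82 and -3.09 in si-NC, -3.04 in si-lncMGPF replicate 1, and -1.19 and -1.56 in replicates 2 and 3. The difference was 0.09 on slide 1 and 1.76 on slide 2. Trpc1, a cation channel, was higher by 0.40 on both slides, with adjusted p 0.282 over all arrays.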
